A study of Mus musculus with 6 samples.

Results

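The Rab GTPases, the largest family of small GTPases that direct vesicle traffic, were described in peripheral regulatory T (pTreg) cells with and without Blimp1. Members were the genes whose probe symbol is Rab followed by a number, and Rab27a and genes that only bind or regulate a Rab protein were left out. This gave 58 genes with 111 probes, out of 19057 genes with a named probe on the array. Of the 58 genes, 42 had a probe above background on at least 2 of the 6 arrays and were tested, and the other 16 were not.

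RNA from 3 Ctrl and 3 CKO samples was hybridized to Illumina MouseWG 6v2 bead arrays. Ctrl cells were Prdm1+/+ CD4-Cre+ and carried Thy1.1, and CKO cells were C57BL/6 Prdm1 flox/flox CD4-Cre+ and carried Thy1.2, so the Cre transgene was shared by both groups and the Thy1 allele was not. CD4-Cre acts in developing T cells, so Blimp1 was already missing from the naive cells. Naive CD4+ Foxp3GFP- cells from pooled spleen and lymph nodes of young adult donors were mixed in equal numbers and injected into C57BL/6 RAG1-/- mice, which lack T and B cells of their own. CD4+ Foxp3GFP+ cells that had arisen there were sorted some weeks later, and the methods name spleen, mesenteric lymph nodes and large intestine as organs taken, without saying which gave the RNA on the arrays. One label field calls the cells iTreg and another peripheral Treg, and the letters P+I stand in the labels of replicates 2 and 3 but not in those of replicate 1.

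A Rab protein is a membrane switch. It holds GTP when active and GDP when idle, is carried on its membrane by prenyl groups, is switched on by exchange factors (GEFs), is switched off by GTPase-activating proteins (GAPs), and in its GTP form recruits effectors that tether, move or fuse vesicles. Each compartment has its own Rab proteins, and in T cells several of those that serve recycling bring the antigen receptor and signalling proteins back to the contact with the antigen-presenting cell.

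Among the 42 tested Rab genes, Rab32, Rab29, Rab19 and Rab4b were lower in CKO than in Ctrl pTreg cells by 1.63- to 2.05-fold, and none was higher at the same thresholds. They are the 4 genes (9.52% of those tested) that met both thresholds named in the study's methods, a fold of at least 1.5 and an unadjusted p below 0.05. Over all 9597 genes tested, 7.43% met these thresholds, 4.37% being lower and 3.06% higher in CKO. The share of Rab genes is near that of all genes for both directions together and above it for the lower direction alone, and with 4 genes this difference was not tested. In RNA of sorted cells in bulk, fewer cells that express a gene and less RNA per cell cannot be told apart. At an adjusted p of 0.05 from limma, 0 Rab genes passed, beside 0.271% of all genes, while 4 Rab genes and 8.07% of all genes had an unadjusted p under 0.05. With the replicate number as a block, 0 Rab genes and 1.91% of all genes passed the adjusted p, and 5 Rab genes and 12.1% of all genes met the study's thresholds, Rab11a being the fifth. All 5 were lower, beside 7.31% of all genes lower and 4.76% higher.

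The sequences upstream of these 4 genes are shown because they are the genes that differed most and because Blimp1 binds DNA. The paper describes Blimp1 as mainly a repressor that can also activate genes, and these 4 genes were lower in cells without it. The sequences are the 250 bases before the RefSeq start site (GRCm38.p6), written on the gene's strand. Capitals mark the letters GAAAG, the core of the sequence that Blimp1 binds, or its reverse complement CTTTC, and the letters of the longer form AGNGAAAG.
Rab32, chr10:10558208-10558457, minus strand: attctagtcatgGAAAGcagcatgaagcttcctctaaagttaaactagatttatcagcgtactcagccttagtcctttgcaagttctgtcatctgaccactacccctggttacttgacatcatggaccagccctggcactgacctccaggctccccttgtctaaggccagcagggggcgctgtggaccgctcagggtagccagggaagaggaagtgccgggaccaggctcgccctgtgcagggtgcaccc
Rab29, chr1:131867027-131867276, plus strand: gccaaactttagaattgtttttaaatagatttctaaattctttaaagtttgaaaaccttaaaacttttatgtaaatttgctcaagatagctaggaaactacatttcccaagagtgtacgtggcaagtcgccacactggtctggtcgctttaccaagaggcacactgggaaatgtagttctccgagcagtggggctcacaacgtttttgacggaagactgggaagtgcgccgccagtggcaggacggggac
Rab19, chr6:39381103-39381352, plus strand: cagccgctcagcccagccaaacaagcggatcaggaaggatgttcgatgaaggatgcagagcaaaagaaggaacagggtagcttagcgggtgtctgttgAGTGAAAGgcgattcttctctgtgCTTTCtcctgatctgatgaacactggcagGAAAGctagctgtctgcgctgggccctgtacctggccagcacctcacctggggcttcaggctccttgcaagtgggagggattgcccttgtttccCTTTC
Rab4b, chr7:27178884-27179133, minus strand: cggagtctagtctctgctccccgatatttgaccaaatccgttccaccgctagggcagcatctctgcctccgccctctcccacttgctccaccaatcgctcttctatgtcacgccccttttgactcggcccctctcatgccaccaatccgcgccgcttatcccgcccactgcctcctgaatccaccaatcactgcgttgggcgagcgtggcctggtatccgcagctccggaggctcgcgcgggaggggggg

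The core GAAAG was present, on either strand, 4 times upstream of Rab19 and 1 time upstream of Rab32, and the windows of Rab29 and Rab4b did not hold it. The longer AGNGAAAG, of which the core is a part, was present only upstream of Rab19 among the 4 genes, beginning 152 bases before the start. Promoters of 47 of the 58 Rab genes were matched. On either strand AGNGAAAG was found in 5 of them, which is 10.6%, and in 7.23% of the 27025 mouse promoters of the same length, and GAAAG in 55.3% and 51.4%. Among the 36 matched promoters of tested Rab genes, AGNGAAAG was found in 3, which is 8.33%, and GAAAG in 52.8%. Interferon regulatory factors read letters that overlap these. A match is a description of the letters, and binding was not measured.

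Rab32 and Rab29, with Rab38, form a subfamily that serves lysosomes and lysosome-related organelles, and both measured members were lower in CKO cells. The normalized intensity of Rab32 in replicates 1, 2 and 3 was 92.6, 68.1 and 98.5 for Ctrl and 37.2, 38.5 and 50.3 for CKO cells. Every Ctrl array was above every CKO array, and each pair went the same way. The log2 fold change (CKO minus Ctrl, from means of log2 values) was -1.04 (standard error 0.25, limma's adjusted p = 0.21), the largest of any Rab gene, and it lay between -1.20 and -0.93 with any 1 array left out. Rab32 came nearest to passing in the fit with the replicate block, at an adjusted p of 0.056, and over the alternatives its adjusted p ran from 0.056 to 0.69.

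Rab29, which recruits the kinase LRRK2 to Golgi and lysosomal membranes, had 345, 257 and 306 in Ctrl and 204, 146 and 172 in CKO replicates 1, 2 and 3. Again the groups did not overlap, and the log2 differences within the 3 pairs, -0.75, -0.81 and -0.83, were close to each other. The log2 fold change was -0.80 (standard error 0.24, limma's adjusted p = 0.32, and 0.083 with the block). The third of the subfamily, Rab38, was above background on 1 array and was not tested. Hps1 and Hps4 together form an exchange factor of Rab32 and Rab38. Their genes differed by 0.0080 (standard error 0.22) and by -0.23 (standard error 0.55) on the log2 scale.

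Rab4b serves the fast return of receptors from early endosomes to the cell surface. Its intensities were 120, 121 and 123 in the Ctrl replicates, the narrowest spread of the 4 genes, and 79.3, 65.1 and 80.6 in the CKO replicates. All Ctrl arrays were above all CKO arrays. The log2 fold change was -0.70 (standard error 0.21, limma's adjusted p = 0.32). Its paralog Rab4a was near background, with 4.13, 2.92 and 10.5 in Ctrl and 7.42, 9.86 and 0.818 in CKO, above it on 1 array of each group, so that no statement on both paralogs can be made.

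Rab19, a Golgi-associated Rab with few described functions, had 31.9, 23.9 and 36.3 in Ctrl and 17.2, 9.56 and 22.3 in CKO replicates. The groups did not overlap, but the gap was small and CKO replicate 2 lay just over its background level of 9.14. The log2 fold change was -0.97 (standard error 0.35, limma's adjusted p = 0.46). Rab19 no longer met the study's thresholds without Ctrl replicate 1 (log2 fold change -0.93), without Ctrl replicate 3 (-0.84), without CKO replicate 2 (-0.63), on the arrays of replicates 2 and 3 alone (-1.01) or with log2(intensity + 16) in place of the floor (-0.54). On a dimmer Rab19 probe the log2 difference was -0.52 (standard error 0.32).

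**Figure D1:**
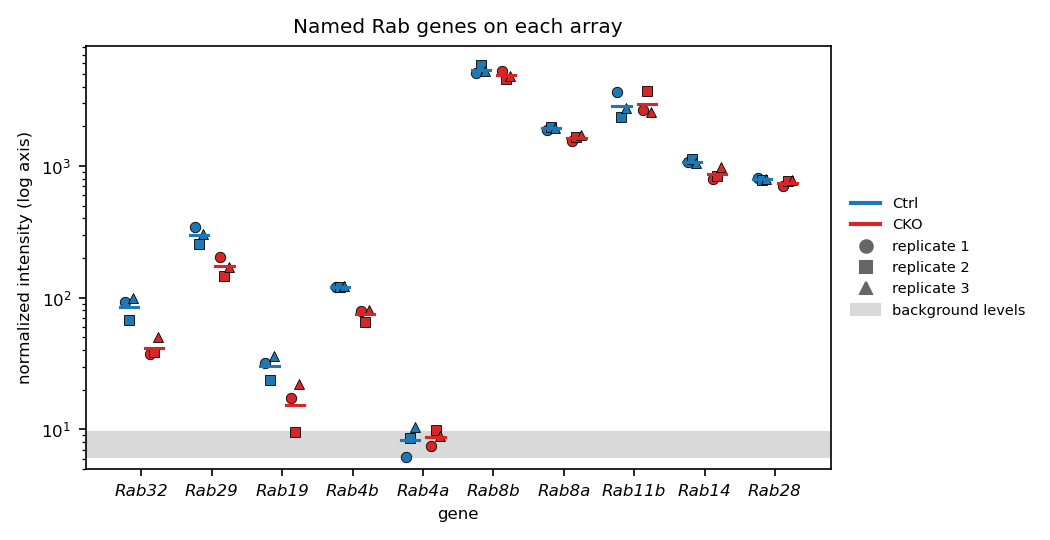
Normalized intensity on a log axis for Rab genes on each of the 6 arrays, with Ctrl in blue, CKO in red, a symbol per replicate and bars at the means of log2 values. Values below an array's background were raised to it, and grey shading covers the 6 background levels, 6.17 to 9.51. The 3 Ctrl values of Rab32, Rab29, Rab19 and Rab4b lie above the 3 CKO values, while those of Rab8b and Rab11b overlap.

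The other genes of recycling and of transport to the plasma membrane gave the highest probe signals of the family, and none of them met the study's thresholds. Probe signals do not rank transcripts, so each is compared only with itself. Rab8a and Rab8b carry cargo from the Golgi to the plasma membrane. Rab8b had 5053, 5820 and 5263 in Ctrl and 5248, 4581 and 4792 in CKO, and Rab8a had 1876, 1968 and 1953 in Ctrl and 1534, 1646 and 1729 in CKO. The Rab8b groups overlapped and the Rab8a groups did not, with log2 fold changes of -0.14 (95% interval -0.62 to 0.33) and -0.24 (95% interval -0.71 to 0.22). On a second Rab8b probe the log2 difference was 0.14 (standard error 0.22), so that the direction for Rab8b depends on the probe.

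Rab11b, of the recycling endosome, had 3629, 2367 and 2732 in Ctrl and 2674, 3681 and 2570 in CKO, and its pairs went both ways, at -0.44, 0.64 and -0.09. Its relative Rab11a had 13.6, 18.9 and 15.6 in Ctrl and 13.8, 8.69 and 8.76 in CKO, and was above background on 1 CKO array. It missed the study's thresholds in the fit without a block (limma's adjusted p = 0.62) and met them once replicates were blocked (adjusted p = 0.30 from limma). It also met them on the arrays of replicates 2 and 3 alone, without Ctrl replicate 1, without CKO replicate 1, with no filter on low values and with the mean of probes. Rab11a has 1 probe, so no filter and the mean of probes left its values unchanged and altered only the variance estimate. The other settings in that list each leave out at least 1 array of replicate 1. Rab14, which acts between Golgi and endosomes, had 1066, 1119 and 1043 in Ctrl and 794, 836 and 980 in CKO. Rab35, a Rab of endocytic recycling, had 614, 714 and 814 in Ctrl and 600, 487 and 563 in CKO. The groups did not overlap for either gene, and their log2 differences, -0.31 (standard error 0.21) for Rab14 and -0.37 (standard error 0.22) for Rab35, did not pass. Of the 11 tested genes of this role, 7 lay below 0, with a median of -0.24.

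On the brightest probe, groups without overlap were found for 8 Rab genes, 7 of them lower in CKO (the 4 above, Rab8a, Rab14 and Rab35) and 1 higher, Rab33b. Over all genes tested 13% had no overlap, 7.11% being lower and 5.94% higher in CKO. On dimmer probes of Rab8a, Rab14 and Rab19 the groups overlapped. The log2 differences there were -0.092 (standard error 0.24) for Rab8a and -0.041 (standard error 0.37) for Rab14. Rab33b, a Golgi Rab that also takes part in autophagy, had 83.4, 92.4 and 98.0 in Ctrl and 116, 113 and 100 in CKO, a difference of 0.26 on the log2 scale (standard error 0.21, limma's adjusted p = 0.88).

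Of the 7 tested genes of late endosomes and lysosomes, 6 lay below 0, with a median log2 fold change of -0.37. Rab7, which drives fusion of late endosomes with lysosomes, had 637, 946 and 1066 in Ctrl and 681, 590 and 662 in CKO. It was lower in the pairs of replicates 2 and 3, at -0.68 and -0.69, and not in that of replicate 1, at 0.10, and 2 dimmer Rab7 probes had 0.045 and -0.093. Rab24 and Rab9 had log2 fold changes of -0.04 and -0.34, and Rab39b, the gene of this role above 0, one of 0.32 (standard error 0.33).

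Of the 10 tested genes of the early secretory pathway and Golgi, 7 lay below 0, with a median of -0.15. Rab1a and Rab2a, which act in transport between endoplasmic reticulum and Golgi, had 262, 280 and 273 against 251, 157 and 266 and 616, 706 and 853 against 598, 616 and 868 in Ctrl and CKO, and both overlapped. Rab6a, of transport within and from the Golgi, had the highest log2 fold change of this role, 0.39 (standard error 0.29), with pairs at -0.40, 0.97 and 0.60. Its other 3 probes above background had 0.48, -0.23 and 0.18. Rab43 had -0.26 (standard error 0.31) on its brightest probe. Another Rab43 probe, at 64.8, 72.9 and 83.1 in Ctrl and 51.6, 39.7 and 42.8 in CKO, had -0.72 (standard error 0.23), which met both of the study's thresholds with no overlap between groups, and the third, dimmer probe had -0.47 (standard error 0.27). The 3 Rab43 probes were thus all lower in CKO, and the call depends on the probe. For Rab1b the brightest probe had -0.10 and a dimmer one -0.68 (standard error 0.29), which also met both thresholds. In all, 16 tested Rab genes had more than 1 probe above background. Rab32, Rab29 and Rab4b had 1 probe each, so their calls could not be compared between probes.

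**Figure D2:**
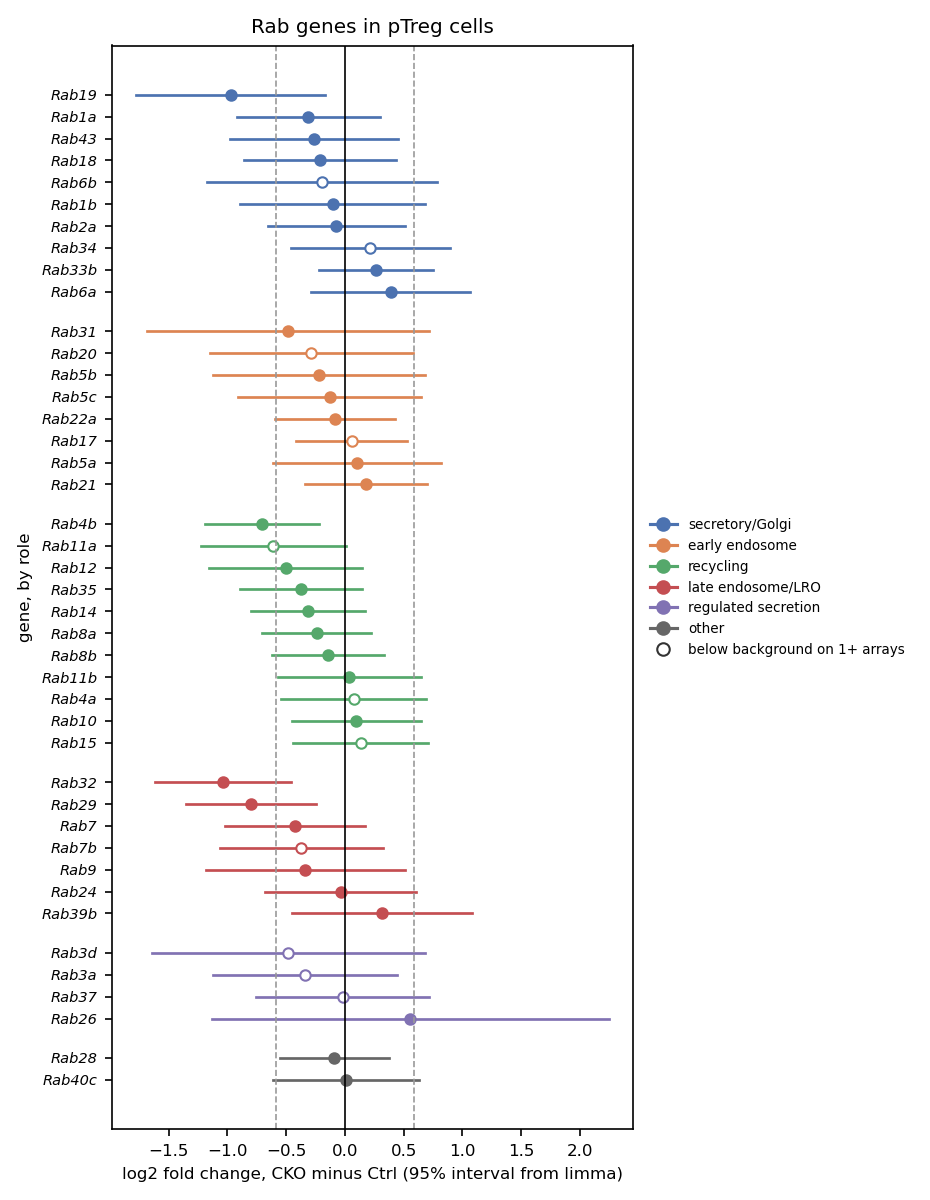
Log2 fold changes (CKO minus Ctrl) of the 42 tested Rab genes by role, as points with 95% intervals from limma, open where an array was below background, with dashed lines at 1.5-fold. The intervals of Rab32, Rab29, Rab19 and Rab4b lie below 0, and all the others include it.

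Over the 42 tested Rab genes the median log2 fold change was -0.17, beside 0.019 over all genes tested, and 29 of 42 (69%) lay below 0, beside 47.6% of all genes. The filter on low values decides which members enter these figures, and with no filter the median was -0.034, with 32 of 58 genes below 0 and a median of 0.088 over all genes. It was -0.070 on the arrays of replicates 2 and 3 alone and -0.10 without Ctrl replicate 1. In the 3 pairs the median was -0.21, 0.053 and -0.097, so it changed sign between replicates, while the median of all genes was 0.074, 0.041 and -0.065. Lower in all 3 pairs were 12 Rab genes and 18.2% of all genes, and higher in all 3 were 7 and 19.5%. Of other small GTPases, 12 tested Arf and Sar genes, which act in coat formation on vesicles, had a median of 0.081 and 0 past the study's thresholds. The difference between them and the Rab genes was not tested.

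Among the 8 tested genes of early endosomes 5 lay below 0, with a median of -0.11, from -0.48 for Rab31 to 0.18 for Rab21. Among the 4 of regulated secretion 3 did, with Rab26 at 0.56 the highest of the family. The remaining tested genes, Rab6b, Rab18, Rab1b, Rab34, Rab22a, Rab10, Rab15, Rab37 and Rab40c, lay between -0.21 for Rab18 and 0.22 for Rab34, and no adjusted p among them was below 0.95.

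For 24 of the 42 Rab genes the 95% interval lay within 2-fold either way, beside 57.7% of all genes. It lay within 1.5-fold either way for 2, Rab28 and Rab17, beside 6.01%. Rab28, of the Golgi and cilia, had 815, 775 and 793 in Ctrl and 702, 763 and 775 in CKO. Its interval is that of the brightest probe, and on a dimmer Rab28 probe the log2 difference was -0.29 (standard error 0.23). Rab17 was above background on 1 array of each group, so its interval covers values mostly at the floor. For the other 40 genes the interval reached past 1.5-fold in at least 1 direction.

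Among regulators of Rab proteins, genes for the Rab5 exchange factors Rin2 and Rin3 and the GAP Usp6nl were lower in CKO, and the GAP gene Rabgap1l was higher. Of 93 tested genes that load, switch or read out Rab proteins, 8 met these thresholds (5 were lower and 3 higher in CKO), a share near the 7.43% of all genes. There were 5 without Ctrl replicate 2 and 11 with the replicate block or with no filter on low values. Of 25 GEFs, 2 were lower and 2 higher, of 25 GAPs 2 were lower and 1 was higher, of 37 effectors and tethers 1 was lower, and of 6 genes of prenylation and GDP dissociation inhibitors none met them. The median over the 93 genes was 0.0080. None passed the adjusted p without the block, and 1 lower and 1 higher gene passed with it, beside 1.91% of all genes. The lower one was Rin2, whose CKO values were all at background.

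Rin2 and Rin3 encode exchange factors of Rab5. Rin2 had 35.1, 20.3 and 25.2 in Ctrl and 7.16, 5.35 and 1.20 in CKO. No CKO array had it above background, so it entered the test through its Ctrl arrays alone. All its CKO values were set to the background levels, which makes it at least 3.08-fold lower in CKO. Limma's adjusted p was 0.070, and 0.031 with the replicate block. The CKO spread behind both is that of the background levels and not of Rin2, so neither measures its variation in CKO cells. Rin3 had 167, 192 and 274 in Ctrl and 113, 101 and 146 in CKO, also without overlap, and differed by -0.80 on the log2 scale (standard error 0.27, limma's adjusted p = 0.42). Usp6nl, a GAP of Rab5, was lower too, with 84.6, 75.2 and 77.1 in Ctrl and 56.8, 41.8 and 35.1 in CKO (log2 fold change -0.85, standard error 0.25).

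The Rab5 genes, which encode the organizers of early endosome fusion, did not meet the thresholds. Rab5a had 407, 233 and 249 in Ctrl and 411, 249 and 286 in CKO. Rab5c had 467, 850 and 931 in Ctrl and 488, 711 and 813 in CKO. Rab5b had 154, 68.0 and 54.5 in Ctrl and 76.2, 79.4 and 59.5 in CKO. The pairs of Rab5a and Rab5c lay close, while Rab5b was lower in CKO in replicate 1, at -1.01, and at 0.22 and 0.13 in the others. The log2 fold changes were 0.10 (95% interval -0.61 to 0.82) for Rab5a, -0.22 (95% interval -1.13 to 0.68) for Rab5b and -0.13 (95% interval -0.91 to 0.65) for Rab5c. Rabgef1 and Gapvd1, which also act as exchange factors of Rab5, had -0.11 (standard error 0.21) and -0.18 (standard error 0.22), and the Rab5 effector Eea1 had 0.46 (standard error 0.23).

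Rabgap1l, a GAP of the TBC domain family, had 11.2, 16.1 and 16.3 in Ctrl and 36.9, 49.4 and 31.0 in CKO, 3 values well above all of Ctrl. On the log2 scale the difference was 1.42 (standard error 0.27, limma's adjusted p = 0.13). With the replicate block it rose at an adjusted p of 0.034. Its relative Rabgap1 had 0.12 (standard error 0.22). Tbc1d2b, another GAP of this family, had 138, 174 and 154 in Ctrl and 100, 110 and 61.7 in CKO. Dennd3, an exchange factor of Rab12, differed by 0.84 on the log2 scale (standard error 0.29), while Rab12 itself had -0.51 (standard error 0.28). Ankrd27, an exchange factor of Rab21 that also binds Rab32, had 20.4, 16.4 and 19.6 in Ctrl and 34.6, 25.6 and 26.5 in CKO, and Rab21 differed by 0.18 on the log2 scale (standard error 0.22). Mical1, an actin-oxidizing enzyme that binds Rab proteins, had 272, 320 and 240 in Ctrl and 177, 200 and 128 in CKO.

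**Figure D3:**
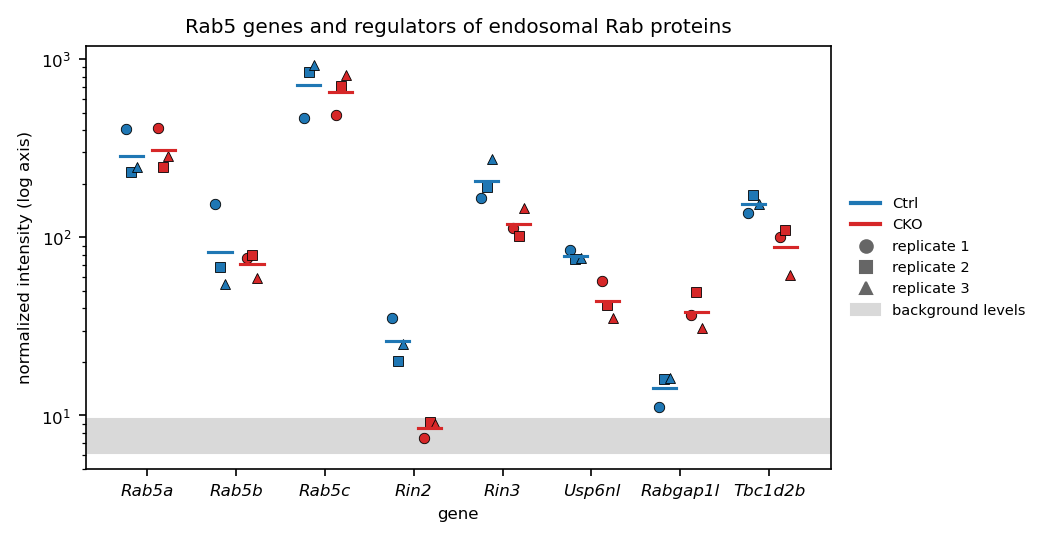
Normalized intensity on a log axis for the 3 Rab5 genes and 5 regulators on each array, drawn as for the named Rab genes with values below background raised to it. Rab5a, Rab5b and Rab5c overlap between groups, Rin2 is at background on the 3 CKO arrays, and the 3 CKO values of Rabgap1l, 31.0 to 49.4, lie above the Ctrl values of 11.2 to 16.3.

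Replicates differed for many Rab genes by more than the genotypes did. The range of the 3 replicate means on the log2 scale was larger than the genotype difference for 29 of 42 Rab genes, beside 78.9% of all genes. Rab26, of secretory granules, had 116, 148 and 35.5 in Ctrl and 174, 248 and 45.0 in CKO, low in both samples of replicate 3 and higher in CKO in each pair. Its log2 fold change was 0.56 (standard error 0.73), and with the replicate block the unadjusted p was 0.023 and the adjusted p 0.22 from limma. The arrays of replicate 1 lay on one slide and the others on a second. Between slides 7 Rab genes met the same thresholds, beside 15.1% of all genes, and 0 passed an adjusted p. Rab5a was higher and Rab5c lower on the slide of replicate 1, by 0.69 and 0.78 on the log2 scale. The columns of the 2 slides have different medians as deposited, and the slide and the missing letters P+I in the labels of replicate 1 cannot be told apart.

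A group of 4 Rab genes near background was highest on Ctrl replicate 1. Rab3d and Rab3a, of regulated secretion, had 33.5 and 18.6 there, and Rab20 and Rab7b, endosomal Rab proteins known from macrophages, had 19.8 and 17.3. On the other 5 arrays these 4 genes lay between -5.36 and 13.1. Rab31, of transport between Golgi and endosomes, had 117, 31.8 and 127 in Ctrl and 56.0, 44.4 and 69.4 in CKO, with pairs at -1.06, 0.48 and -0.87. Between slides the genotype difference itself differed for 5 Rab genes at an unadjusted p under 0.05, beside 2.40% of all genes, and 0 passed the adjusted p from limma. These were Rab6a and the 4 genes just named for Ctrl replicate 1. The slide of replicate 1 holds a single pair, so this is the same observation and no separate evidence.

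Transcripts of myeloid cells also differed between arrays. Of 11 myeloid marker genes with a probe, 8 were above background on at least 2 arrays, while Itgam, Adgre1 and Itgax were not above it on any. Their summed intensity was 25780, 2639 and 33480 in Ctrl and 13130, 1925 and 23270 in CKO, so replicate 2 was lowest in both groups. S100a8 and S100a9 made up most of the sum, which was lower in CKO in each pair. The median log2 difference of the 8 genes was -1.17, 0.45 and -0.60 in the 3 pairs, so most were higher in CKO in replicate 2, where Cd14 had 21.8 in Ctrl and 43.1 in CKO. Lyz2 and Mpo were highest on Ctrl replicate 1, at 667 and 2289, while the sum was highest on Ctrl replicate 3, where Rab3d, Rab20, Rab7b and Rab3a had 9.70, 5.68, 2.86 and 0.114. In replicate 2 the sum was 2639 in Ctrl and 1925 in CKO. In that single pair Rab32, Rab29, Rab19 and Rab4b were lower in CKO by 0.82, 0.81, 1.32 and 0.89 on the log2 scale. The part of myeloid transcripts in the values of Rab32, Rab29, Rab19, Rab4b, Rab31, Rab3d, Rab20, Rab7b and Rab3a was not tested.

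**Figure D4:**
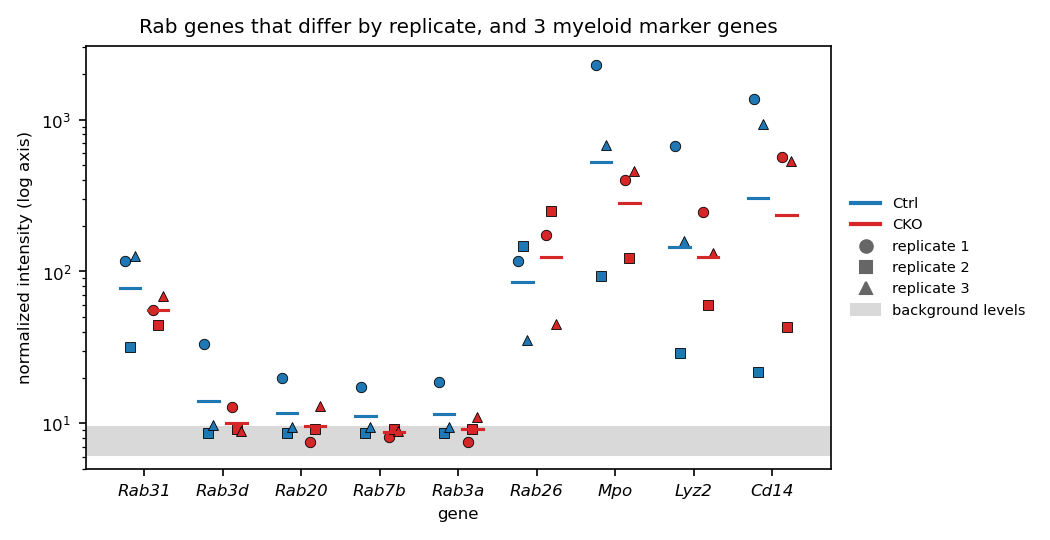
Normalized intensity on a log axis for 6 Rab genes that varied between replicates and for the myeloid marker genes Mpo, Lyz2 and Cd14, with values below background raised to it. Rab31 and the 3 marker genes are lowest in replicate 2 of both groups, and Rab3d, Rab20, Rab7b and Rab3a are highest on Ctrl replicate 1.

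The 16 Rab genes that were not tested had mean intensities of -2.69 to 7.75 on their brightest probe, of which 6 were above background on 1 array and 10 on none. They were Rab2b, Rab30, Rab33a and Rab36 of the Golgi, Rab13 and Rab25 of epithelial transport, Rab9b, Rab38, Rab39 and Rab42 of late endosomes and lysosomes, Rab3b, Rab3c and Rab27b of regulated secretion, and Rab23, Rab40b and Rab44. Of the 42 tested genes, 31 were above background on all 6 arrays, and 8 on 2 arrays only.

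The arrays as a whole had 32.4% to 38.3% of probes above background, which lay at intensities of 6.17 to 9.51. Of the T cell and Treg marker genes all 8 with a probe were above background, with sums of 14680 to 19700 in Ctrl and 8545 to 10410 in CKO. Ctla4 alone had 6201 to 8549 in Ctrl and 2621 to 3845 in CKO. Of the 8 genes 6 had a log2 fold change below 0, while Foxp3, between 141 and 480, overlapped between groups. Of 5 B cell markers 3 were above background on at least 2 arrays with any probe, and their summed intensity was 17.5 to 32.7. Above background on at least 2 arrays were 3 of 6 CD8 and NK markers, 5 of 5 erythroid and platelet markers and 3 of 6 epithelial and stromal markers. Cd8b1 had 544 to 1031 and Hba-a1 531 to 1858, above background on all 6 arrays, while Cd8a was above it on none. Prdm1, the targeted gene, had 18.9 to 50.9 in Ctrl and 341 to 704 in CKO. The place of its probe relative to the deleted part is not known here, so it checks no label. From arrays that include these, the paper reports Prdm1 as raised and Il10 as lowered in both pTreg and effector T cells without Blimp1. Il10 had 3203 to 5935 in Ctrl and 99.2 to 128 in CKO.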

How the data were processed

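Total RNA of sorted CD4+ Foxp3GFP+ pTreg cells was hybridized to Illumina MouseWG 6v2 arrays, 3 of Ctrl and 3 of CKO cells, grouped by the genotype in the labels. The authors exported intensity values from Genome Studio and quantile normalized them. The deposited intensities are linear, between 35.4% and 36.0% per array lie below 0, and column medians are 2.84 on one slide and 2.64 to 2.65 on the other. Whether background was subtracted before or after that step is not stated.

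The 6 columns were quantile normalized together. Each array's background level was set from 1506 probes of olfactory and vomeronasal receptors, at their 95th percentile, in place of the detection p-values of the methods. Lower values were set to that level before log2. Of 45281 probes, 34885 have 1 symbol, 18 several and 10378 none, and 34807 symbols were checked through RefSeq (GRCm38.p6). Genes above background on at least 2 arrays were kept on their brightest probe, and 9597 were compared with limma 3.58.1 (R 4.3.3; lmFit, eBayes, no block, as the methods name none) with Benjamini-Hochberg adjustment over all of them. The steps were tested on simulated data. No depth applies to arrays, and their number limits the precision. The methods call the samples biological replicates.

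Samples of one number were paired: the labels give those of replicates 2 and 3 a shared day, replicate 1 shares a slide, and deviations from group means correlated at 0.51, 0.49 and 0.56 over genes, which are not independent replicates. Members and lists were chosen with earlier results of these data known. Values on each array are given for Rab genes past the study's thresholds, past an adjusted p or without overlap at 1.5-fold, for the 5 with the highest probe signals and for close paralogs. Rab11a, Rab33b, Rab35, Rab7, Rab1a, Rab2a, Rab43, the Rab5 genes, Rab26, Rab31, Rab3a, Rab3d, Rab20 and Rab7b, and the regulators without a call, were chosen after their values were seen. Of each list of regulators up to 4 genes past the thresholds are named. Alternatives were another floor, filter, probe choice, log scale, normalization and variance model, blocks for replicate and slide, the arrays of replicates 2 and 3 alone, and each array left out. One further list of genes is not reported here.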

Additional observations from a re-analysis of the deposited data

How the results depend on the processing

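Rab32, Rab29 and Rab4b met the study's thresholds under all 17 alternatives, and Rab19 under 12. Many of these could not move the log2 fold change of Rab32, Rab29 or Rab4b, which have 1 probe each and lie well above background. It stayed the same with another floor or filter, the mean of probes, either block and the other variance model. Those alternatives altered only its standard error and p. The count of Rab genes past these thresholds was 5 with the replicate block (samples paired by number), 4 with the slide as a block, 6 on the arrays of replicates 2 and 3 alone (5 lower and 1 higher, Rab6a) and 3 to 5 with any 1 array left out, and none passed an adjusted p under any alternative. The replicate block changed no call of a Rab gene at the adjusted p. With the block, genes past the study's thresholds numbered 1159 in place of 713, and genes past the adjusted p 183 in place of 26. The median log2 fold change of Rab genes was -0.034 with no filter on low values, which adds 16 genes near background, and -0.19 to -0.10 with any 1 array left out. Regulators past the thresholds numbered 5 to 8 with any 1 array left out and 11 with the replicate block or with no filter. The median of Rab genes was -0.070 on replicates 2 and 3 alone. Of the 10 Rab genes followed one by one under each alternative, signs turned for Rab8b with the mean of its probes (8.4e-04), for Rab11b with 1 array left out (-0.13 to 0.21, below 0 without Ctrl replicate 2 or CKO replicate 2), and for Rab4a on replicates 2 and 3 alone (-0.028), and with 1 array left out (-0.13 to 0.25, below 0 without Ctrl replicate 1 or CKO replicate 2), none of which passed. The causes were not tested.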
